A study of Mus musculus with 24 samples.

Results

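The liver 48 h after a blood draw was set against the liver 24 h after it in mice that lack erythroferrone. The comparison covers the 4 arrays labelled liver at 48 h and the 4 labelled liver at 24 h, chosen by those labels, out of 24 arrays in the study, and it was made over all genes measured. All mice were male and Erfe-/-, those of 0 h included, and livers and bone marrow were taken 0, 24 or 48 h after phlebotomy by puncture behind the eye, from 4 mice at each time. Different mice were sampled at each time, and age and strain background are not given in the sources used here. The 4 liver arrays of 0 h, labelled as phlebotomy like the others, serve below as the baseline, to say whether a 48 h value lay near it or away from it. Total RNA of the liver was labelled with 1 dye and hybridised to Agilent microarrays, so no value comes from a single cell type, and in such bulk tissue fewer cells of a type and less RNA per cell cannot be told apart.

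Erythroferrone is a hormone that erythroblasts release when red cell production is driven up, and it acts on the liver to lower hepcidin, the peptide that blocks iron export from cells by binding ferroportin. Hepcidin transcription in hepatocytes is held up by bone morphogenetic proteins acting through SMAD factors and is also driven by interleukin 6 through STAT3. The same cytokine, together with interleukin 1, drives the acute phase response, in which hepatocytes make serum amyloid A, haptoglobin and related plasma proteins within hours of injury, after which their transcripts normally decline.

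Levels are log2 values of the background-corrected signal with the array's own 75th percentile set to 0, and differences are on that log2 scale. The 12 liver arrays had 28013 to 34428 probes well above background, none had a saturated probe, and rank correlations between them lay between 0.934 and 0.964. Both probes for Erfe were not well above background, each on 0 of 12 arrays, so this check is of low signal only and wild-type liver is not analysed here. All 10 hepatocyte markers were well above background on every liver array, with a list mean of 8.39 to 8.52 at 24 h and 8.35 to 8.60 at 48 h. The arrays lay on 3 slides, each scanned at a time of its own and each holding liver arrays of all 3 times.

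No gene passed a limma Benjamini-Hochberg adjusted p under 0.05 between 48 h and 24 h. Of 19638 genes tested, 1507 (7.67%) had an unadjusted limma p under 0.05, with 752 (3.83%) higher and 755 (3.84%) lower at 48 h. The smallest adjusted p was 0.212, so no single gene below is called as different, and all the values that follow describe these 8 arrays. A further count took genes whose 4 arrays of 48 h all lay above or all below the 4 of 24 h. There were 729 such genes (3.71%), 370 (1.88%) higher and 359 (1.83%) lower at 48 h, a split that was 388 to 219 when arrays were scaled by their median. A difference of at least 1 was fitted for 135 genes (0.687%), 54 (0.275%) higher and 81 (0.412%) lower. The typical standard error of a difference was 0.12, and precision is limited by how few arrays there were. The lowest p that an exact two-sided permutation test of 4 arrays against 4 can give is 0.0286.

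The 729 genes with groups that did not overlap were sorted by their fitted distance from the baseline. Early genes stood more than 2 times as far from 0 h at 24 h as at 48 h, and late genes more than 2 times as far at 48 h as at 24 h. By that rule 338 genes were early and back near baseline, of which 188 had been higher and 150 lower at 24 h. Another 198 were late, with 84 higher and 114 lower at 48 h, and the remaining 193 fell in neither class. The comparisons share their arrays, so these classes order the genes and carry no test. In the same fits 2196 genes (11.2%) had an unadjusted limma p under 0.05 for 24 h against 0 h and 1287 (6.55%) for 48 h against 0 h, with no gene passing the adjusted threshold in either.

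**Figure D1:**
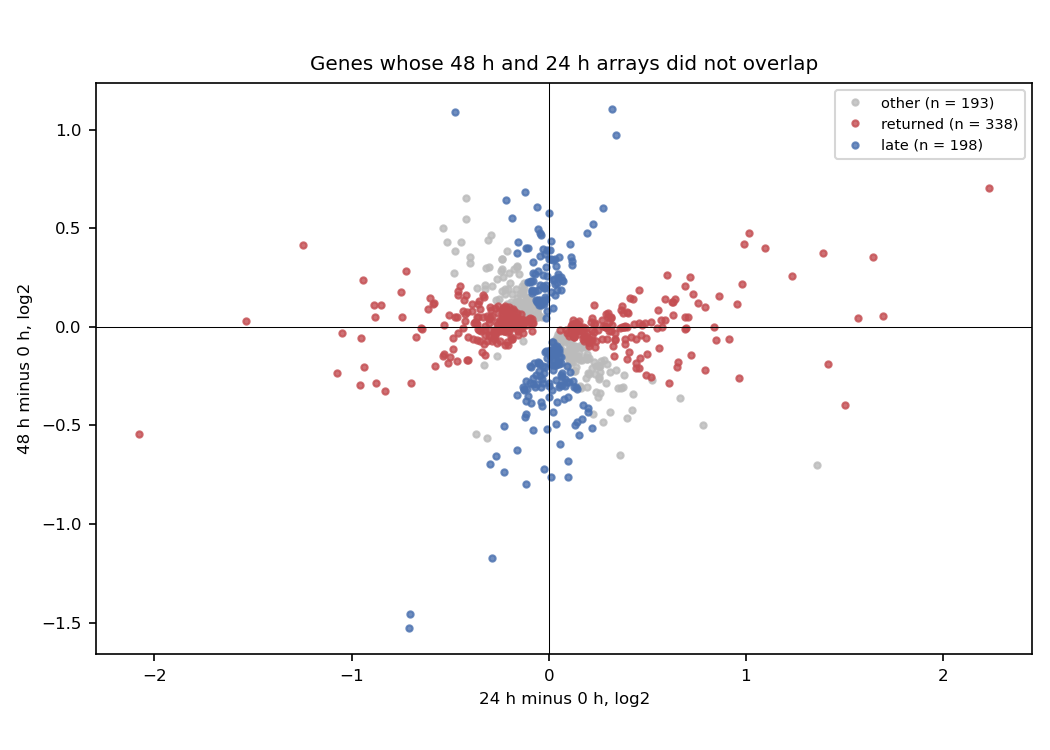
Each point is 1 of the 729 genes whose 48 h and 24 h liver arrays did not overlap, placed by its fitted 24 h minus 0 h difference (x axis, log2) and 48 h minus 0 h difference (y axis, log2). Red points are the 338 genes nearer to the 0 h level at 48 h, blue points the 198 genes that stood apart mainly at 48 h, and grey points the other 193.

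The acute phase transcripts that were lower at 48 h were the serum amyloids, lipocalin and one serpin, while most of the list lay near 0. Of 32 positive acute phase genes, 4 were lower and 1 higher at an unadjusted limma p under 0.05 (3.84% and 3.83% of all genes), and the list median was -0.04 against 0.003 over all genes. The same 32 genes had a median of 0.42 for 24 h against 0 h, with 10 higher at that threshold (4.60% of all genes were higher) and none lower, and a median of 0.29 for 48 h against 0 h, with 4 higher (2.44% of all genes). The count of lower genes for 48 h against 24 h rested on 1 array, as without 48 h replicate 1 no member was lower and 1 was higher.

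Saa1, a serum amyloid A carried on high density lipoprotein, had levels of 9.55, 9.02, 9.51 and 8.07 in 24 h replicates 1 to 4 and of 5.69, 8.37, 6.59 and 6.74 in 48 h replicates 1 to 4. Its probe lies at chr7:53996070-53996129 in mm9, the build of the array files, and whether probes fall in exon or UTR is not analysed here. The 2 groups overlapped through 48 h replicate 2, which lay above 24 h replicate 4. The fitted difference was -2.19 with a standard error of 0.81 (limma unadjusted p = 0.0206, adjusted p = 0.567), and the exact permutation p was 0.0571. Within the 3 slides the difference was -3.87, -1.54 and -2.05. The livers of 0 h were spread widely, at 9.17, 5.29, 6.81 and 5.41, so that 0 h replicate 1 was as high as those of 24 h. On average Saa1 stood 2.37 above 0 h at 24 h and 0.18 above it at 48 h.

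Saa2, its neighbour and close copy on chromosome 7, followed the same order of arrays, at 10.04, 9.56, 9.97 and 8.71 at 24 h and 6.32, 8.94, 7.15 and 7.34 at 48 h. Its difference was -2.13 with a standard error of 0.77 (limma adjusted p = 0.563). The 250 bases before the starts of Saa1 and Saa2 share 238 identical bases in an alignment, and probes of such close copies may read each other's RNA. Lcn2, a siderophore-binding lipocalin that withholds iron from bacteria, had levels of 5.39, 5.22, 6.03 and 3.96 at 24 h and 1.80, 4.01, 3.48 and 3.43 at 48 h. The difference was -1.97 (standard error 0.84, limma adjusted p = 0.62), with 48 h replicate 2 again just above 24 h replicate 4. A second probe for Lcn2 gave -2.08.

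Serpina3n, a protease inhibitor of the antichymotrypsin group, was the 1 member lower at 48 h with no overlap, at 4.23, 4.12, 4.67 and 3.95 at 24 h and 3.18, 3.73, 3.52 and 3.74 at 48 h. Its difference was -0.70 (limma adjusted p = 0.571, exact permutation p = 0.0286), after 0.86 for 24 h against 0 h and with 0.16 left for 48 h against 0 h. Cebpb, a transcription factor of the acute phase, lay the other way, at 3.58 to 3.94 at 24 h and 4.08 to 4.81 at 48 h, a difference of 0.60 (limma adjusted p = 0.61).

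Other acute phase genes lay above the 0 h mean at both later times. The metallothioneins Mt1 and Mt2, which bind zinc and copper, were 1.77 and 1.43 above 0 h at 24 h and 1.80 and 2.16 above it at 48 h. A second probe of Mt1 was 1.02 higher at 48 h than at 24 h, where the first differed by 0.03. Fgl1, a hepatocyte-secreted fibrinogen-like protein, was 1.36 above 0 h at 24 h and 0.93 above it at 48 h, and Hp, haptoglobin, which captures free hemoglobin, was 0.43 and 0.33 above it. None of these 4 genes had a limma adjusted p under 0.05 in any of the 3 comparisons. The 11 negative acute phase genes, such as albumin-type plasma proteins, had a median of 0.0015 between 48 h and 24 h, with none at an unadjusted p under 0.05.

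**Figure D2:**
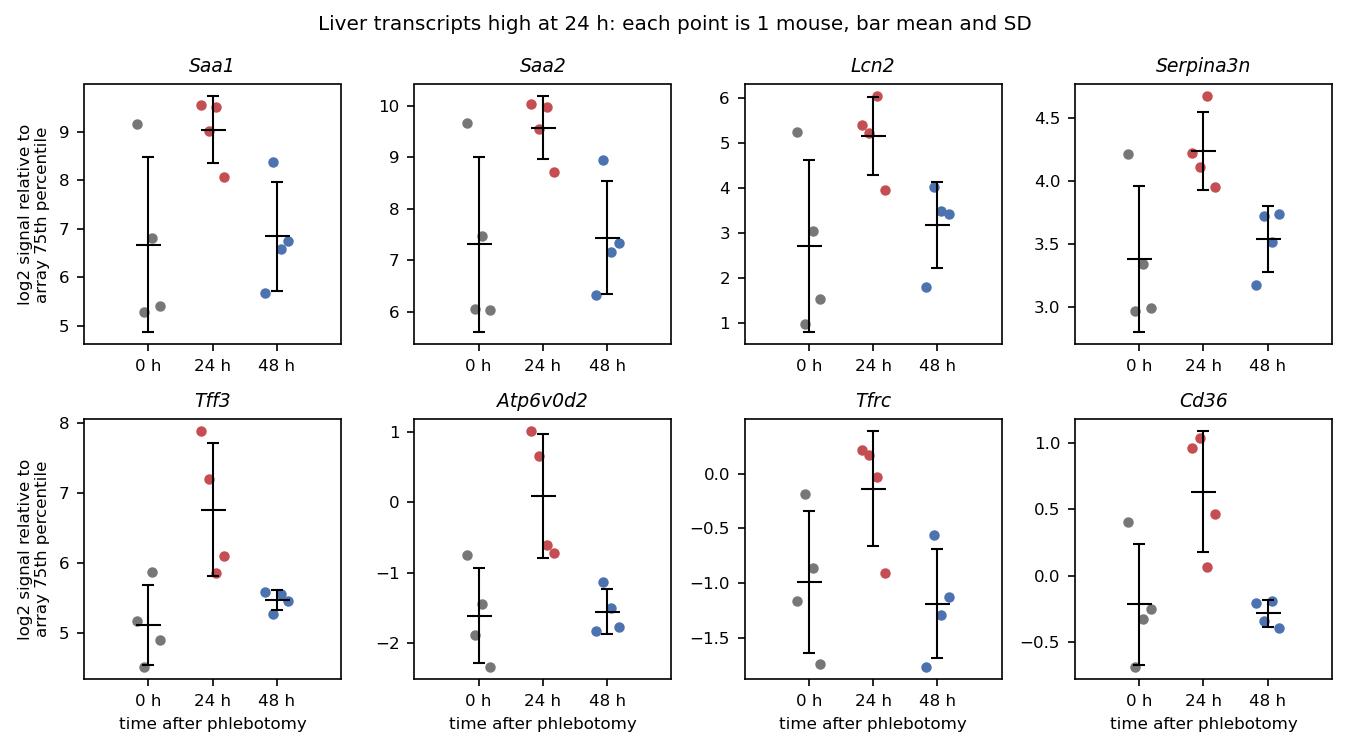
Levels of 8 transcripts in each liver (y axis, log2 signal relative to the array's 75th percentile) at 0, 24 and 48 h (x axis); each point is 1 mouse and the bars are mean and SD over 4 mice. Saa1, Saa2 and Lcn2 overlap between 24 h and 48 h by 1 array at each time, while Serpina3n, Tff3, Atp6v0d2 and Cd36 do not overlap.

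Chaperones and quality control factors of the endoplasmic reticulum mostly had lower fitted levels at 48 h. Of 22 genes, 21 had a lower fitted level at 48 h and 3 were lower at an unadjusted limma p under 0.05, against 3.84% of all genes, and the list median was -0.29. The same list stood at a median of 0.32 for 24 h against 0 h and of 0.02 for 48 h against 0 h. Edem1, which hands misfolded glycoproteins to degradation, was at 3.45, 3.33, 3.67 and 3.33 at 24 h and at 2.86, 3.09, 3.17 and 3.20 at 48 h, so that its groups did not overlap, and its difference was -0.37 (standard error 0.10, limma adjusted p = 0.482). Sel1l, the adaptor of the ubiquitin ligase that works with it, had a difference of -0.47, and Manf, a secreted factor induced by unfolded proteins, of -0.72. Hspa5, the central chaperone of this compartment, was at 7.33 to 7.92 at 24 h and 6.46 to 7.59 at 48 h, which overlap. The list mean of 48 h replicate 1 was 3.84, below the 4.44 to 4.65 of the other 48 h arrays, and 24 h replicate 3 was the highest at 4.95. Within slides the difference in the list mean was -0.80, 0.01 and -0.28. The count of lower members was 1 without 48 h replicate 1 or without 24 h replicate 3 and 8 without 48 h replicate 2.

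Genes of the cell division cycle had lower fitted levels at 48 h. Of 40 listed, 30 passed the filter on dim probes, all 30 had a lower fitted level at 48 h, and 9 were lower at an unadjusted limma p under 0.05, against 3.84% of all genes. The filter kept probes above background on all 4 arrays of only 1 time, which lets in members that are dim at 48 h, so these counts are no test. Ccnb1, Prc1 and Cenpe were above background on all 4 arrays of 24 h and on 2, 3 and 3 of 48 h. The list median was -0.39, after 0.33 for 24 h against 0 h, and it was -0.07 for 48 h against 0 h. Cdc20, the activator of the anaphase-promoting complex, was at 0.09, -0.05, -3.06 and -1.75 at 24 h and at -2.42, -2.46, -2.21 and -2.88 at 48 h. Replicates 1 and 2 of 24 h were thus well above every 48 h array, while replicate 3 was below all of them. Its difference was -1.30 with a standard error of 0.56 (limma adjusted p = 0.627, exact permutation p = 0.2).

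The same 2 arrays were high for the list as a whole. Its mean level was -0.16 and -0.43 in 24 h replicates 1 and 2, -1.53 and -1.12 in replicates 3 and 4, and -1.41 to -1.14 at 48 h. Ccnd1, cyclin D1, which drives entry into the cycle, was 2.66 and 2.59 in replicates 1 and 2, 1.75 and 2.22 in replicates 3 and 4, and 1.55, 1.49, 2.27 and 1.52 at 48 h. Aurka, a mitotic kinase, differed by -0.82 (standard error 0.26, limma adjusted p = 0.522) and Ccnb2, cyclin B2, by -0.70. Within slides the difference in the list mean was -1.25, -0.72 and -0.07, the last being the slide with 24 h replicates 3 and 4. The number of lower members was 2 without 24 h replicate 1, without 24 h replicate 2 or without 48 h replicate 4, 4 without 48 h replicate 1 and 18 without 24 h replicate 3. Cenpu, a centromere protein outside the list, had the fourth smallest p of all genes, but it passed the filter through the 24 h arrays alone. That p sets 24 h against signal not above background, so it is no test. Over the alternative settings the fitted difference ran from -2.09 to -0.35. Cenpu was well above background on all 4 arrays of 24 h, at -3.57, -4.47, -4.36 and -3.19, and on none of the 48 h or 0 h arrays. It was thus at least 1.53-fold higher at 24 h, a bound set by the dimmest signal still above background on each array (limma adjusted p = 0.212).

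Neutrophil and B cell markers also had lower fitted levels at 48 h, and their part in the cell cycle result was not tested. In all 3 lists 24 h replicate 1 was the highest array, but replicate 3, the lowest of 24 h for cell cycle genes, was not the lowest for either set of markers. Neutrophil markers had a median difference of -0.79 between 48 h and 24 h, with 11 of 12 members lower in the fit but none at an unadjusted limma p under 0.05. Their list mean was 0.35, -0.31, -0.31 and -1.04 at 24 h and -1.99, -1.22, -0.53 and -0.57 at 48 h, and it ran from -2.03 to 0.20 in livers of 0 h. Within slides the difference in the list mean was -2.34, -0.57 and 0.10, so the third slide lay the other way. The summed linear signal of the 12 markers was 94.6 to 112.4 at 24 h and 81.8 to 100.04 at 48 h. Among the 12, Mmp8 and Cxcr2 were above background on all 4 arrays of 24 h and on 1 and 3 of 48 h. Mpo, myeloperoxidase of neutrophil granules, was at -0.45, -1.80, -1.75 and -3.22 at 24 h and at -4.19, -4.14, -3.12 and -2.07 at 48 h, so its groups overlapped. B cell markers had a median of -0.38, with 3 of 5 lower at an unadjusted limma p under 0.05, against 3.84% of all genes. Of these 5, 1 was lower with slide as a block or without 24 h replicate 1, 48 h replicate 2 or 48 h replicate 3, and without 24 h replicate 1 the median was -0.20. Their list mean was -1.24, -1.63, -1.62 and -2.01 at 24 h and -2.12 to -1.97 at 48 h, which overlap, and their summed signal was 1.54 to 2.79 and 1.39 to 1.58. All 13 markers of Kupffer cells and macrophages were above background on every liver array, their median difference was -0.08, and 1 was lower, Ccr2, the receptor that brings monocytes in, at -0.65.

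**Figure D3:**
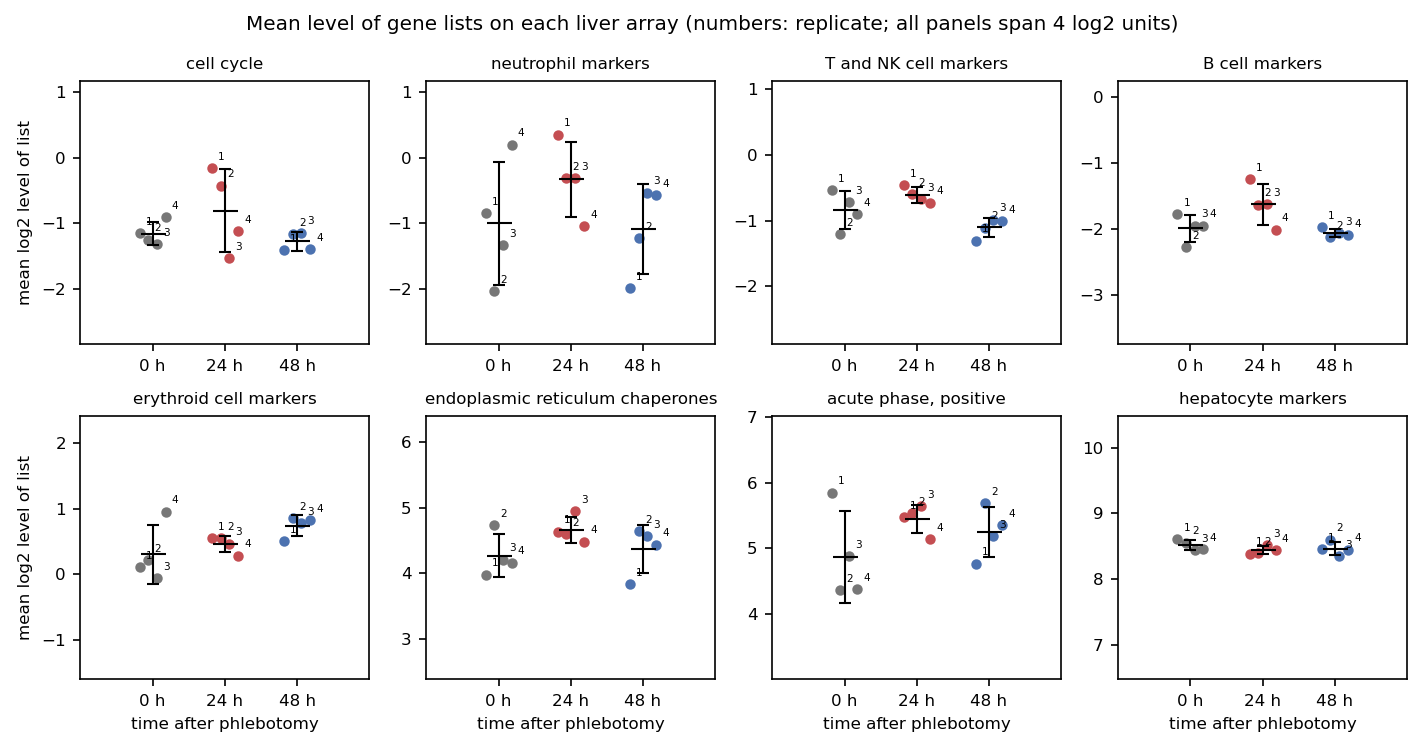
Mean log2 level of 8 gene lists on each of the 12 liver arrays (y axis) at 0, 24 and 48 h (x axis); points are single mice, numbered by replicate, and bars are mean and SD over 4 mice. Cell cycle genes were high in 24 h replicates 1 and 2 and not in replicates 3 and 4, while T and NK cell markers were lower on all 4 arrays of 48 h than on any of 24 h.

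Outside these groups, Tff3 and Atp6v0d2 were picked by rules on size, on lack of overlap and on nearness to 0 h at 48 h. Those traits therefore follow from the choice. Tff3, a trefoil peptide that protects epithelia, was at 7.88, 7.20, 5.86 and 6.11 at 24 h and at 5.59, 5.28, 5.56 and 5.47 at 48 h, after 5.18, 4.52, 5.87 and 4.90 in livers of 0 h. The 48 h arrays were close together and below every 24 h array, and the difference was -1.29 (standard error 0.41, limma adjusted p = 0.522). Atp6v0d2, a subunit of the proton pump that acidifies vesicles, was at 1.01, 0.66, -0.60 and -0.72 at 24 h and at -1.82, -1.12, -1.50 and -1.77 at 48 h, a difference of -1.64 (standard error 0.42, limma adjusted p = 0.438). A second probe gave -2.01. In both genes 24 h replicates 1 and 2 stood highest, and within slides Atp6v0d2 differed by -2.84, -1.98 and -1.11. Cd36, a fatty acid transporter, was at 0.96, 1.03, 0.06 and 0.46 at 24 h and at -0.40 to -0.19 at 48 h. Its difference of -0.91 followed 0.85 for 24 h against 0 h and left -0.07 for 48 h against 0 h.

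Tfrc, the transferrin receptor that takes up iron, was at 0.22, 0.17, -0.03 and -0.91 at 24 h and at -1.77, -0.57, -1.29 and -1.13 at 48 h, overlapping by 1 array at each time. The difference was -1.05 (standard error 0.36, limma adjusted p = 0.54), it had been 0.85 for 24 h against 0 h, and a second probe gave -0.67. Among 18 iron handling genes it was the 1 lower at an unadjusted limma p under 0.05 (3.84% of all genes), and 2 were higher (3.83%) by small amounts. Blvrb, biliverdin reductase B, was 0.25 higher, and Slc25a37, which imports iron into mitochondria, was 0.19 higher, although the mean of all its probes was -0.06.

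Genes that respond to glucocorticoids lay on both sides. Fkbp5, a co-chaperone of the glucocorticoid receptor, was at 2.56, 2.70, 2.45 and 2.17 at 24 h and at 1.75, 1.87, 1.96 and 2.15 at 48 h, a difference of -0.54 (standard error 0.12, limma adjusted p = 0.412) that placed it 0.03 above the 0 h mean, but a second probe gave -0.06. Sult1e1, which inactivates estrogen by sulfation, was at -1.56, -0.87, -2.14 and -2.84 at 24 h and at -3.85, -5.19, -2.32 and -6.28 at 48 h, a fitted difference of -2.56 (standard error 0.71, limma adjusted p = 0.457). Only 2 of its 48 h arrays were well above background, and with dim signals raised to the dimmest one above background on their array the difference was -1.95. The median of the list of 13 lay the other way, at 0.32, with 1 member higher and 2 lower at an unadjusted limma p under 0.05 (3.83% and 3.84% of all genes). Its mean level hardly differed, averaging 2.29 at 24 h and 2.31 at 48 h, and within slides that mean differed by 0.13, 0.18 and -0.31. The higher count was 4 with slide as a block and 5 without 24 h replicate 4. Klf9, a factor induced by the receptor, was 0.49 higher. Chil1, a chitinase-like lectin of macrophages and neutrophils, was above background on all 4 arrays of 24 h and on none of 48 h and was at least 1.69-fold higher at 24 h (limma adjusted p = 0.412). Acmsd, which diverts tryptophan breakdown from NAD synthesis, was at 0.65 to 1.26 at 24 h and -0.48 to 0.15 at 48 h, a difference of -1.01 (limma adjusted p = 0.379).

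The other early genes were low at 24 h and near the 0 h level at 48 h. Crybg2, a protein of the crystallin fold, was well above background on 1 of 4 arrays at 24 h, at -5.62, -5.41, -4.47 and -4.29, and on all 4 at 48 h, at -3.57, -3.64, -2.70 and -3.73. Cpsf4l was at -1.94, -1.87, -1.26 and -0.26 at 24 h and at 1.22, -0.14, -0.25 and 0.08 at 48 h, and livers of 0 h were at -0.01 to 0.37. The fitted differences were 1.53 and 1.56 (limma adjusted p = 0.412 and 0.438). In both genes the 2 groups did not overlap and 48 h lay near 0 h, traits that follow from the rules that picked them. The difference of Crybg2 is set against signal mostly not above background. It became 1.16 with such signals raised to the dimmest one above background on their array, and a second probe gave 1.27. Gadd45g, a stress-inducible growth arrest factor, was at 2.76, 4.11, 4.63 and 3.03 at 24 h and at 4.65, 5.58, 5.24 and 5.71 at 48 h, a difference of 1.66 (limma adjusted p = 0.618), but livers of 0 h ran from 2.61 to 6.26. Slc2a5, the fructose transporter, was 0.99 higher at 48 h after -0.88 for 24 h against 0 h, and Ncmap, a myelin membrane protein, was 1.18 higher after -0.94. Gpcpd1, a glycerophosphocholine phosphodiesterase, was 0.90 higher after -0.95.

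Liver enzymes with male or female bias, many of them under growth hormone, followed this pattern in part. Of 23 tested, 11 were lower for 24 h against 0 h at an unadjusted limma p under 0.05 (6.58% of all genes were lower), 3 were lower for 48 h against 0 h (4.11% of all genes), and 2 were higher for 48 h against 24 h (3.83%). The list medians were -0.38, -0.20 and 0.22. Replicates 1 and 2 of 24 h stood apart, with list means of 4.16 and 4.28 against 4.70 and 4.87 in replicates 3 and 4 and 4.50 to 4.97 at 48 h. The median between 48 h and 24 h was -0.00046 without 24 h replicate 1 and 0.051 without replicate 2. The counts moved as well, to 7 higher and 4 lower without 24 h replicate 3, 9 higher and 1 lower without replicate 4, and 8 higher and 3 lower with slide as a block. Cyp2d9, a male-biased steroid hydroxylase, was at 4.38, 4.92, 5.72 and 5.89 at 24 h and at 6.06, 6.20, 5.89 and 5.93 at 48 h, and although the groups did not overlap, the 2 higher arrays of 24 h came close to those of 48 h. C6, a complement component with male bias, was 0.67 higher (limma adjusted p = 0.502). Of 28 drug metabolism genes, 10 were lower for 24 h against 0 h (6.58% of all genes), and 4 were higher (3.83%) and 1 lower (3.84%) for 48 h against 24 h. These last counts were 8 and 4 without 24 h replicate 3, 2 and 0 without 24 h replicate 2, 2 and 1 without 48 h replicate 2, and 6 and 3 with slide as a block. Without 48 h replicate 3, 48 h replicate 4 or 24 h replicate 1 no member was lower. Cyp1a1, an aryl hydrocarbon-induced monooxygenase, was at -6.56, -5.05, -4.60 and -4.04 at 24 h and at -3.13, -3.58, -4.30 and -3.90 at 48 h, and it was well above background on only 3 arrays of each. Its fitted difference of 1.34 became 0.82 when signals below the dimmest one above background on their array were raised to it.

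Fatty acid synthesis genes lay below baseline at both times. Of 21, 9 were lower for 24 h against 0 h (6.58% of all genes) and 11 for 48 h against 0 h (4.11%), and the list medians were -0.23 and -0.34. For 48 h against 24 h the median was -0.07, with 2 lower and 1 higher (3.84% and 3.83% of all genes). No member was lower without 48 h replicate 2, 48 h replicate 4 or 24 h replicate 1, and 4 were without 24 h replicate 4 or with slide as a block. Scd1, the desaturase that makes oleate, was at 7.94, 7.65, 7.74 and 7.67 at 24 h and at 7.92, 7.10, 7.37 and 7.21 at 48 h, and the livers of 0 h were at 8.02 to 8.14. It differed from 0 h by -0.35 at 24 h and -0.70 at 48 h. Pklr, liver pyruvate kinase, differed from 0 h by -1.15 at 24 h and -0.47 at 48 h, and its 48 h minus 24 h difference was 0.68.

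Hepcidin had its lowest mean at 48 h. Hamp, which encodes it, was at 6.69, 7.17, 7.52 and 7.46 in livers of 0 h, at 6.42, 7.12, 6.97 and 6.22 at 24 h, and at 6.62, 4.99, 5.43 and 4.76 at 48 h. Of the 48 h arrays, 3 lay below every other liver array, and replicate 1 lay among those of 24 h. The difference between 48 h and 24 h was -1.23 with a standard error of 0.37 (limma unadjusted p = 0.00643, adjusted p = 0.502), and the exact permutation p was 0.0857. Against 0 h Hamp differed by -0.52 at 24 h and -1.76 at 48 h. The probe lies at chr7:31727490-31727549 in mm9. Within slides the difference was 0.19, -1.92 and -1.83, the first being the slide of 48 h replicate 1.

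Hamp2, a close copy of Hamp on chromosome 7, was at 4.62, 4.79, 2.95 and 3.03 at 24 h and at 3.98, 2.54, 2.15 and 1.89 at 48 h. Again 48 h replicate 1 lay among the 24 h arrays, and the difference was -1.21 (standard error 0.53, limma adjusted p = 0.627, exact permutation p = 0.143). Probes of such close copies may read each other's RNA, so the 2 genes may not be separate observations. The promoter windows of Hamp and Hamp2 are shown because both had lower fitted levels and hepcidin is the known liver target of erythroferrone. Each window holds the 250 bases before the start in RefSeq GRCm38.p6, on the minus strand, at chr7:30944030-30944279 for Hamp and chr7:30924182-30924431 for Hamp2. Capitals mark matches to TTCNNNGAA, the core that STAT factors read, and GGCGCC, the core of the BMP response element, each searched on both strands.
Hamp: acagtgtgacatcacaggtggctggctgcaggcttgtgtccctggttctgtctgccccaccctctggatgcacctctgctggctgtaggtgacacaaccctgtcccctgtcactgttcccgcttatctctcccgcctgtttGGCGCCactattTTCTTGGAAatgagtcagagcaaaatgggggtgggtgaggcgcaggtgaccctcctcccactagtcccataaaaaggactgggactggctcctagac
Hamp2: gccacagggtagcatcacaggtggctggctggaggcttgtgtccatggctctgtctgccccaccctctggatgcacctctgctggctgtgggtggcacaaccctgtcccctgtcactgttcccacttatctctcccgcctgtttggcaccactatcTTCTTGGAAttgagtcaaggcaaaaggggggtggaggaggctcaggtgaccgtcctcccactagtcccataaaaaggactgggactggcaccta
The Hamp window holds GGCGCC beginning 109 bases before the start and TTCNNNGAA beginning 97 bases before it, without overlap. That of Hamp2 holds the second, 94 bases before the start, and not the first, although 227 bases are identical in an alignment of the 2 windows. Neither was found in the windows of Saa1, Saa2, Serpina3n, Lcn2 or Id3. Of 32851 windows of this length, 7.02% hold TTCNNNGAA and 9.59% hold GGCGCC. A match describes letters and is no evidence of binding.

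Of 23 genes of hepcidin control and BMP signalling, 4 were lower and 1 higher at an unadjusted limma p under 0.05 (3.84% and 3.83% of all genes), and the list median was -0.02. The lower count was 2 without 48 h replicate 2, 48 h replicate 3 or 24 h replicate 1. Id3, an immediate target of SMAD factors, was at 2.90, 2.68, 2.55 and 2.39 at 24 h and at 2.44, 2.11, 1.98 and 2.20 at 48 h, after 2.48 to 3.24 in livers of 0 h. Its difference was -0.45 (standard error 0.17, limma adjusted p = 0.576), and against 0 h it differed by -0.33 at 24 h and -0.77 at 48 h. Other SMAD targets already lay lower at 24 h. Smad7, the inhibitory SMAD, differed from 0 h by -0.54 at 24 h and -0.72 at 48 h, although a second probe of Smad7 was 0.38 higher at 48 h than at 24 h, and Atoh8, a factor that acts on the hepcidin gene, by -0.47 and -0.38. Of the ligands, Bmp6, made by sinusoidal endothelium, differed by -0.23 and Bmp2 by 0.40, with Bmp2 at 1.05, 1.60, 1.64 and 1.56 at 24 h and 1.62 to 2.12 at 48 h. Neo1, neogenin, a receptor that binds the co-receptor hemojuvelin, differed by -0.28, and a second probe gave -0.10.

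**Figure D4:**
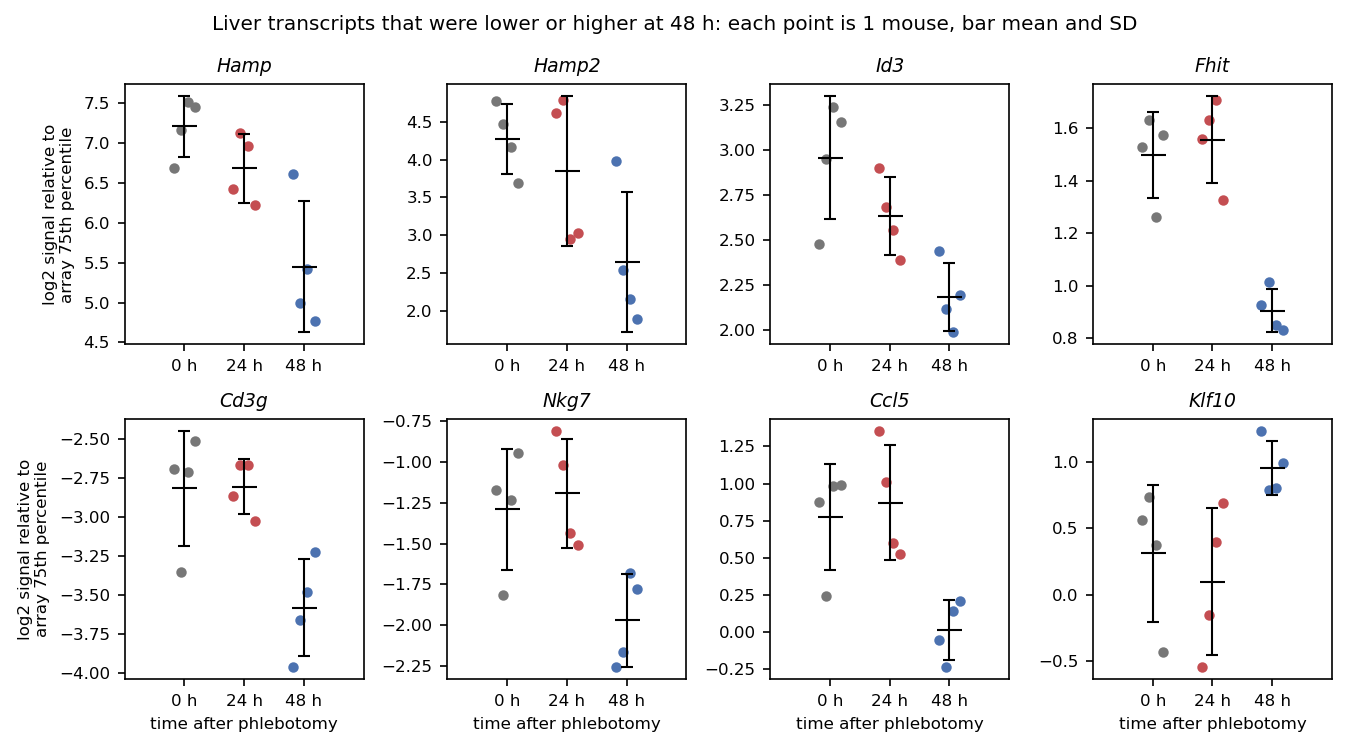
Levels of 8 transcripts in each liver (y axis, log2 signal relative to the array's 75th percentile) at 0, 24 and 48 h (x axis); each point is 1 mouse and the bars are mean and SD over 4 mice. In Hamp and Hamp2 1 array of 48 h lies among those of 24 h, whereas Fhit, Cd3g, Nkg7, Ccl5 and Klf10 do not overlap between 48 h and 24 h. Lack of overlap was part of a rule that picked Cd3g, Ccl5 and Klf10.

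Transcripts of T cells and natural killer cells mostly had lower fitted levels at 48 h. Of 10 markers 8 passed the filter, 7 had a lower fitted level at 48 h than at 24 h, and 4 were lower at an unadjusted limma p under 0.05, against 3.84% of all genes. Klrb1c, 1 of those 7, was above background on all 4 arrays of 24 h and on 1 of 48 h. The list median was -0.69 for 48 h against 24 h, 0.05 for 24 h against 0 h and -0.29 for 48 h against 0 h. The first was -0.25 with normexp background correction and -0.29 in the authors' deposited table, with 4 lower in each. The mean of the list was -0.73 to -0.46 at 24 h and -1.31 to -0.98 at 48 h, with no overlap, and -1.21 to -0.54 in livers of 0 h, which overlap both. Within slides the difference in the list mean was -0.85, -0.45 and -0.31. The summed linear signal of the 8 markers lay the other way, at 41.9 to 45.6 at 24 h and 43.5 to 54.9 at 48 h, most of it from the probe of Cd4, the co-receptor of helper T cells, which differed by 0.16.

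Cd3g, a chain of the T cell receptor complex, was at -2.87, -2.67, -2.67 and -3.02 at 24 h and at -3.96, -3.66, -3.48 and -3.22 at 48 h. The groups did not overlap, a trait that a rule which picked Cd3g required. The difference was -0.77 (standard error 0.19, limma adjusted p = 0.438), while 24 h against 0 h gave 0.01. Nkg7, a protein of cytotoxic granules, was at -0.81, -1.02, -1.43 and -1.51 at 24 h and at -2.26, -2.16, -1.68 and -1.78 at 48 h, a difference of -0.78. Cd3d and Gzma, another T cell receptor chain and a granule protease, differed by -0.73 and -0.65, each with 1 array of overlap. Not every member of the list lay that low. With the probes brightest over liver and marrow arrays together, Cd3e, a further chain of that receptor complex, differed by -0.04 and Klrk1, another member, by -0.29. Ccl5, a chemokine that such cells secrete, was at 1.35, 1.01, 0.60 and 0.52 at 24 h and at -0.05, -0.24, 0.14 and 0.21 at 48 h, a difference of -0.86 (limma adjusted p = 0.438). It had stood at 0.24 to 0.99 in livers of 0 h. Ubd, a ubiquitin-like protein induced by interferon gamma, was at -2.72 to -1.93 at 24 h and -3.66 to -2.77 at 48 h, a difference of -0.89. Xcl1, another lymphocyte chemokine, was well above background on all 4 arrays of 24 h and none of 48 h. It was picked by size and lack of overlap. Its difference is set against signal not above background and ran from -1.43 to -0.30 over the alternative settings. Itgb7, the integrin that homes lymphocytes to the gut, was picked in the same way and differed by -1.22. That value leans on 24 h replicate 3, at 1.62 against -0.96 to -0.72 on the other 24 h arrays.

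Of 35 interferon response genes 2 were lower and 1 higher, near the share over all genes, and the median was -0.03. Cxcl9, the chemokine induced by interferon gamma, was at 1.26, 0.23, -0.01 and -0.20 at 24 h and at -0.50 to -0.19 at 48 h, and against 0 h it differed by -0.41 at 24 h and -1.03 at 48 h.

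The single genes with the smallest p of the whole comparison were of mixed kind, and among them only Fhit was late by the rule above. Fhit, a diadenosine triphosphate hydrolase, had the smallest, at 1.56, 1.63, 1.71 and 1.32 at 24 h and at 0.92, 1.01, 0.85 and 0.83 at 48 h, against 1.26 to 1.63 in livers of 0 h. The difference was -0.65 with a standard error of 0.10 (limma unadjusted p = 4.77e-05, adjusted p = 0.212), within slides it was -0.64, -0.70 and -0.69, and the 2 other probes gave -0.64 and -0.57. Pcp4l1, a small protein of the PCP4 family, was at -0.37 to -0.21 at 24 h and 0.11 to 0.52 at 48 h, a difference of 0.60 (limma adjusted p = 0.212), and a second probe gave 0.19. Parva, an adaptor at integrin contacts, differed by -0.46, but its 2 other probes gave -0.29 and 0.01. Slc26a6, an anion exchanger, was at -0.33 to -0.13 at 24 h and 0.18 to 0.45 at 48 h, a difference of 0.52 after -0.46 for 24 h against 0 h, so it was early and back near baseline, and a second probe gave 0.37.

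Among late genes higher at 48 h, Slc13a5, the citrate importer of hepatocytes, was at -1.51, -0.99, -1.49 and -1.01 at 24 h and at -0.62, -0.60, 0.03 and -0.69 at 48 h. The difference was 0.78 (limma adjusted p = 0.609), and it stood 1.1 above 0 h at 48 h. Klf10, a zinc finger factor induced by TGF-beta, was at -0.55, -0.15, 0.40 and 0.69 at 24 h and at 1.23, 0.79, 0.81 and 0.99 at 48 h, a difference of 0.86 (standard error 0.29, limma adjusted p = 0.537). Vnn1, the pantetheinase of hepatocytes, was also higher at 48 h but fell in neither class. It was at -2.20, -2.0, -1.22 and -1.10 at 24 h and at -0.84, -0.93, -0.17 and -0.30 at 48 h, a difference of 1.07 (limma adjusted p = 0.438). Against 0 h it differed by -0.42 at 24 h and 0.66 at 48 h. Gatad2b, a chromatin repressor subunit, owed its 0.66 to 48 h replicate 4, at 0.24 against -1.44 to -1.36 on the other 48 h arrays, and a second probe gave 0.07.

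Red cell transcripts mostly had higher fitted levels at 48 h. Of 18 erythroid markers 11 passed the filter, 10 had a higher fitted level and 4 were higher at an unadjusted limma p under 0.05, against 3.83% of all genes, with a median of 0.41. That median depended on the processing and on the probe taken for Klf1. It was 0.26 with normexp background correction, 0.25 in the authors' deposited table, 0.24 without 24 h replicate 4, 0.29 with the mean of all probes of a gene, and 0.08 with the probes brightest over liver and marrow arrays together. With these brightest probes Alas2, Car2, Ermap and Tspo2 differed by 0.013, 0.008, 0.035 and 0.062 and Rhd by -0.15, while Slc4a1 and Ahsp differed by 0.51 and 0.80. Against 0 h the list median in the main fit was 0.0006 at 24 h and 0.08 at 48 h. Hba-a1, alpha globin, was at 7.37 to 7.62 in livers of 0 h, at 7.97, 7.98, 7.90 and 7.90 at 24 h and at 7.87, 8.51, 8.56 and 8.45 at 48 h. Of the 48 h arrays, 3 lay above all others, and replicate 1 lay below those of 24 h. The difference was 0.41 (standard error 0.13, limma adjusted p = 0.523), and Hbb-bt, a beta globin, gave 0.42 with the same replicate apart. The globins stood 0.87 and 1.12 above 0 h at 48 h. Globin copies are close in sequence, so a probe may read more than one.

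Klf1, the erythroid transcription factor, and Car1, the red cell carbonic anhydrase, had another course. Klf1 was at -3.02, -2.97, -3.05 and -3.01 at 24 h and at -2.36, -2.62, -2.31 and -2.79 at 48 h, a difference of 0.49 (limma adjusted p = 0.438), which placed it 0.08 above the 0 h mean. A second probe for Klf1 differed by only 0.08 between 48 h and 24 h, so the value belongs to 1 probe. Car1 was 0.48 higher after -0.61 for 24 h against 0 h, and a second probe gave 0.65. Icam4, an adhesion protein of red cells, was at -3.68, -4.11, -3.93 and -3.43 at 24 h and at -2.72, -3.05, -2.74 and -2.49 at 48 h, a difference of 1.04 (standard error 0.17, limma adjusted p = 0.213). Its signal was dim, as the dimmest one above background was at -5.24 to -4.27 on the 24 h arrays. Over the alternative settings the difference ran from 0.49 to 1.16. Rhag, a glycoprotein of the red cell membrane, was above background on none of the 12 liver arrays.

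The remaining lists had at most 3 members at that threshold between 48 h and 24 h, where 3.83% of all genes were higher and 3.84% lower. Gluconeogenesis with amino acid breakdown, coagulation, cytosolic heat shock and p53 targets had no member at an unadjusted limma p under 0.05, with medians of -0.07, -0.02, -0.01 and 0.01. Fasting and ketogenesis had 1 of 31 higher and 1 lower, sterol synthesis 2 of 25 higher and 1 lower, and the hypoxia response 1 of 21 higher and 2 lower. Msmo1, a sterol demethylase, was 0.34 higher, which placed it -0.05 from the 0 h mean, but its 2 other probes gave -0.35 and 0.28. The integrated stress response had 1 of 24 in each direction, NRF2 targets 1 of 21 higher, complement 1 of 19 higher, immediate early genes 1 of 21 higher, bile acid genes 2 of 23 lower and the circadian clock 2 of 19 lower. The bile acid count changed with the design, to 6 higher and 3 lower with slide as a block, 4 higher and 3 lower without 24 h replicate 3 and 6 higher and 4 lower without 24 h replicate 4. Cry1, a clock repressor, was at -3.07 to -2.39 at 24 h and at -4.51, -3.14, -3.97 and -2.84 at 48 h, which overlap.

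Markers of tissues that a liver sample might also hold had few members at that threshold too. Sinusoidal endothelial markers had a median of 0.02 with 1 of 8 higher, stellate cell markers -0.22 with none of 9, and bile duct markers 0.24 with none of 7. Pancreas markers had a median of 0.10 with 1 of 5 lower, fat cell markers 0.07 with 1 of 5 in each direction, and platelet markers -0.17 with none of 4. Fabp4, a lipid chaperone of fat cells and capillaries, was at 3.70, 3.08, 2.35 and 2.50 at 24 h and 1.99 to 2.38 at 48 h.

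**Figure D5:**
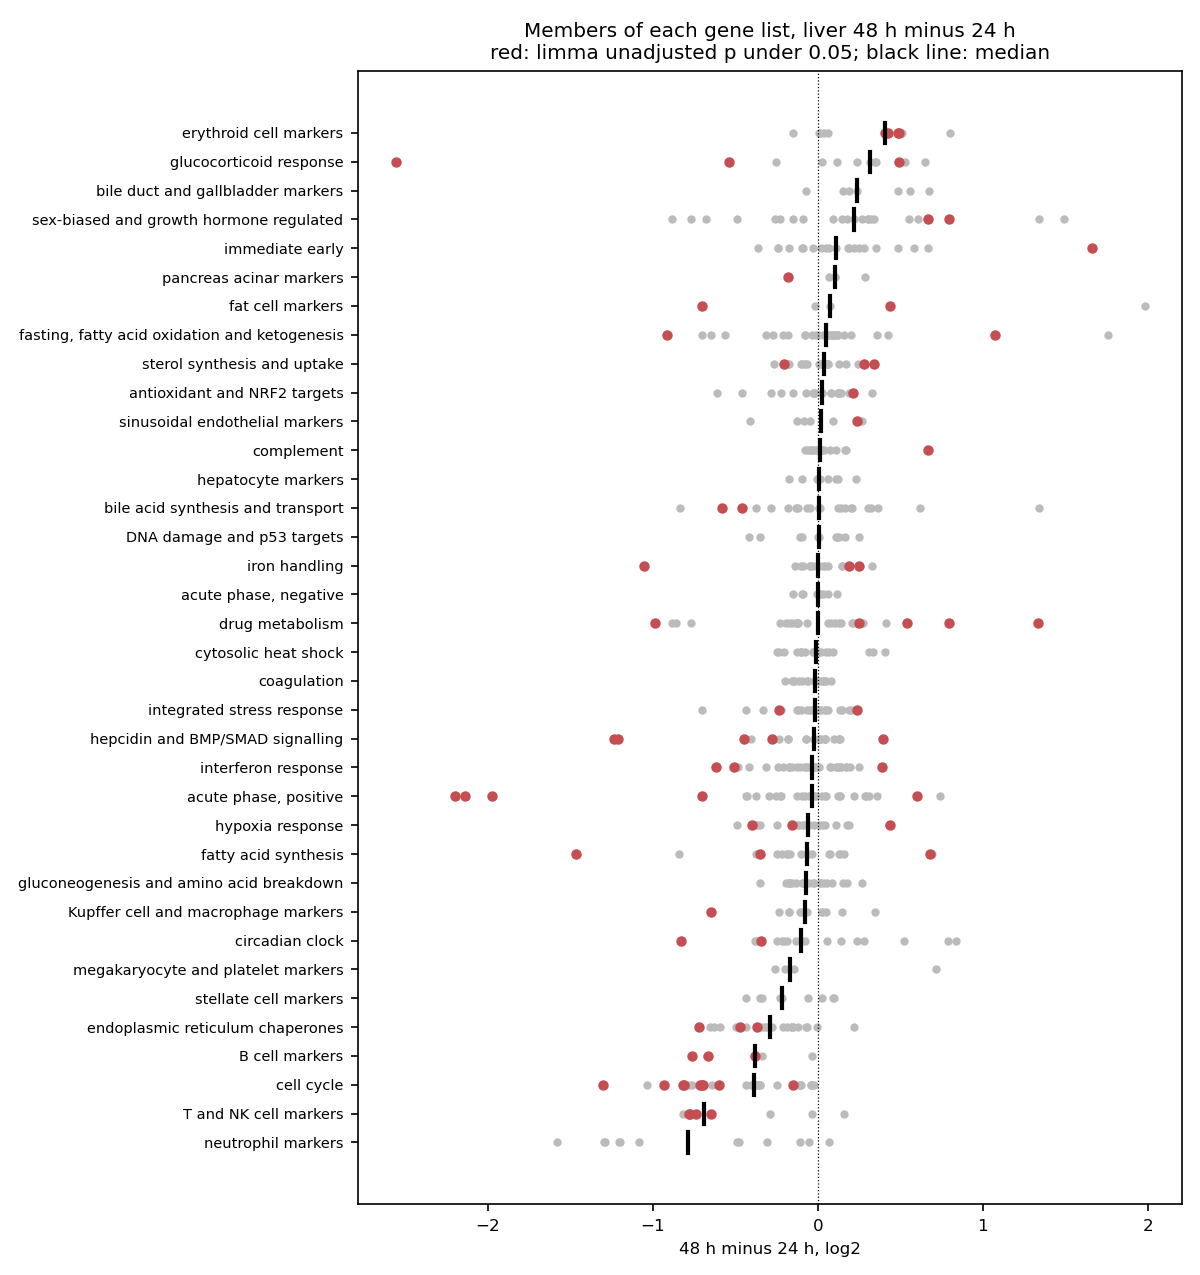
Fitted 48 h minus 24 h difference (x axis, log2) of every tested member of 36 gene lists (y axis), ordered by list median (black line); red points had an unadjusted limma p under 0.05. Neutrophil, T and NK cell, cell cycle and B cell genes lie lowest, with medians of -0.79 to -0.38, and erythroid markers highest, at 0.41.

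The same interval in the bone marrow of these mice was compared by a test of the difference between tissues over 18226 genes. The fit treated all arrays as independent and did not pair the liver and marrow of a mouse. No gene passed an adjusted limma p under 0.05, with 1231 at an unadjusted p under 0.05, so no gene's 48 h against 24 h difference was shown to be particular to the liver. The smallest adjusted p was 0.0666, for Cenpu, which had a fitted difference of -1.90 in liver, where it was not above background at 48 h, and 0.09 in marrow. On marrow 24 h replicate 2 albumin (Alb), the main secreted protein of hepatocytes, had a log2 level of 8.54 relative to the array's 75th percentile, against -7.61 to -0.43 on the other marrow arrays. Without that array no gene passed either, and the smallest adjusted p was 0.109.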

How the data were processed

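Deposited scanner files hold spot intensity, per the file headers, from Agilent Feature Extraction 10.10.1.1, per the submitters' processing notes. The authors' deposited value table is on a log2 scale and served as an alternative; its scale, offset and centring are otherwise not given in the sources used here. From the processed, background-corrected intensity, log2 values were taken minus each array's 75th percentile, after leaving out control spots and outliers. Probes were kept where 1 or more liver groups had all 4 arrays well above background, and the brightest kept probe stood for a gene. A linear model in limma 3.58.1 (R 4.3.3) over the 12 liver arrays gave 48 h minus 24 h, with Benjamini-Hochberg adjustment over 19638 genes. Of 56605 probes, 32994 were named through RefSeq accessions, 10224 by symbol and 520 by synonym, and 12867 kept the file's name. In data simulated for this comparison over 19638 genes, 82 of 100 genes changed by 1 on the log2 scale and 98 of 100 changed by 2 were recovered, with 5 false calls. The simulated noise was normal and independent between genes and arrays, without slide effects or outlying arrays. Those shares therefore check the fitting step and do not give the power in the real arrays.

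Genes named were the 10 largest increases and 10 largest decreases with unadjusted p under 0.05 and no overlap, the 5 smallest p, 5 per class and direction, and up to 4 members of each list with unadjusted p under 0.05, otherwise 2; fewer are printed here. Further list members were named outside that rule, after their values were seen, among them Lcn2, Fgl1, Hp, Mt1, Mt2, Hspa5, Smad7, Atoh8 and Bmp6. Members and lists were chosen with earlier results of these data known. Alternatives were quantile and median scaling, normexp (offset 50), the authors' table, other filters, all probes of a gene, slide or replicate blocks, array weights and leaving out each array; the position of an array on its slide was added as a block after seeing the data. The labels call the samples of a time separate mice. Promoter windows were also searched for an NF-kB motif, which is not reported here.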

Additional observations from a re-analysis of the deposited data

Results flagged for a closer look

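In 18 of 304 groups of 4 arrays checked among the named genes and lists, 1 array stood far from the other 3, a share of 5.92% where chance gives about 1 in 20.

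At 48 h, replicate 1 stood low for the globins Hba-a1, at 7.87 against 8.45 to 8.56, and Hbb-bt, at 5.50 against 6.12 to 6.23. The same array was low for Sel1l, at 4.32 against 5.02 to 5.04, and for Fetub, a liver-secreted protein of the fetuin family, at 6.73 against 6.96 to 6.97. It was high for Akr1d1, a bile acid reductase, at 1.26 against 0.82 to 0.88, and for Ncmap, at -0.86 against -1.77 to -1.69.

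At 48 h, replicate 3 stood high for Ccnd1, at 2.27, for Crybg2, at -2.70, and for Slc13a5, at 0.033. Replicate 2 was high for Psph, a serine synthesis enzyme, at 0.73, and replicate 4 was high for Gatad2b, at 0.24, and low for Srp54b, a signal recognition particle subunit, at -4.50.

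At 24 h, replicate 3 stood low for Gzma, at -0.39 against -0.12 to -0.10, and for Slc26a6, at -0.33 against -0.16 to -0.13. It was high for Itgb7, at 1.62, and for Hspa1a, an inducible heat shock protein, at -1.90, and the mean of its immediate early genes was 0.43 against 0.65 to 0.69 on the other arrays. Replicate 1 of 24 h was low for Bmp2, at 1.05 against 1.56 to 1.64.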

How the results depend on the processing

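No gene passed limma's adjusted p of 0.05 under any scaling, background correction, filter, probe rule, block, weighting or table tried, except that 1 gene did without 24 h replicate 4; the cause was not tested. Leaving out each array in turn gave 0 to 1 such genes and 1043 to 1667 genes with no overlap between groups, a count that grows by construction with fewer arrays. With the replicate block, 0 genes passed, the smallest limma adjusted p was 0.108 and 1409 genes had an unadjusted limma p under 0.05. Different mice were sampled at each time, so equal numbers do not mark the same mouse. Same-numbered 48 h and 24 h arrays deviated together with r of -0.0088, 0.058, -0.072 and 0.038. Against 0 h arrays r ran from -0.27 to 0.15. So few values cannot show whether the numbers carry a shared factor. Of 2418 alternative values for 116 single genes, 6 turned in sign. Some settings keep the fitted differences where every array has a value, so they could not turn a sign or move a list median. They are the position block, a trended and robust variance, and the fit to the 24 h and 48 h arrays alone. Many of the genes were also picked for the size or p of their difference. Col1a1 ran from -0.90 to 0.12 and Col1a2 from -0.69 to 0.062, both positive without 24 h replicate 2, and G6pc ran from -0.015 to 0.57, negative without 48 h replicate 3 (-0.015) and 24 h replicate 1 (-0.0021). With the mean of all kept probes Igf1 was 0.45 and Slc25a37 was -0.062. Of 756 list medians, 8 moved by more than the spread between arrays: erythroid markers gave 0.26 with normexp, 0.25 in the authors' deposited table, 0.24 with the strict filter and 0.24 without 24 h replicate 4, fat cell markers -0.36 with the strict filter, and T and NK cell markers -0.25 with normexp, -0.29 in the authors' deposited table and -0.52 with no filter. Signals near background limit the dim transcripts, and 4 mice at each time limit every value.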

Other observations

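Angptl4, an inhibitor of lipoprotein lipase, and Elovl3, a fatty acid elongase, had fitted 48 h minus 24 h differences of 1.76 and 1.49 and were chosen after their values were seen. Neither reached an unadjusted limma p of 0.05. Against 0 h, Angptl4 differed by -1.11 at 24 h and 0.65 at 48 h, and Elovl3 by -2.0 and -0.51.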
